A study of Mus musculus with 16 samples.

Results

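Mouse embryonic stem cells that depended on CTCF carrying the change K365T were compared with cells that depended on CTCF carrying Q418R, both kept in medium with leukemia inhibitory factor (LIF). The comparison rests on 2 RNA libraries of each line. Of 55291 listed genes, 37742 had a value above 0 somewhere in the series and 31986 in these 4 libraries, and 17166 genes whose normalised count averaged 10 or more in the 4 libraries entered the test. A normalised count is the number of reads of a gene after scaling for the depth of its library.

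All cells derive from E14Tg2a, a line of strain 129/Ola. In every culture, the endogenous CTCF protein was removed through an auxin degron with 500 µM indole-3-acetic acid, and a transgene was switched on with 1 µg/ml doxycycline, a treatment for which the protocol gives 2 days. The transgene encoded CTCF with K365T in one line and with Q418R in the other, and lines with wild-type CTCF (WT) or with R342C were treated in the same way. The LIF arm contained serum, LIF, 3 µM CHIR99021, which inhibits GSK3, and 1 µM PD0325901, which inhibits MEK, while cells of the second arm, named no LIF, grew for 3 days in medium lacking all 3. Each genotype is represented by 1 line, so a difference between the CTCF changes and a difference between the lines cannot be told apart. No library of untreated cells was analysed here. The labels number the libraries of a group 1 and 2 without saying that they came from separate cultures. The p-values measure the spread within groups, pooled over all 16 libraries of the series, and that spread may be technical.

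CTCF is a DNA-binding protein with an array of zinc fingers, each of which reads a few bases of a long recognition sequence. Bound CTCF stops the cohesin complex as it extrudes loops of chromatin, which places boundaries between neighbouring domains and brings some enhancers and promoters together. It also sits at imprinting control regions, protocadherin promoters and boundaries within the Hox clusters. K365T and Q418R are amino acid changes within the zinc finger array. In embryonic stem cells kept in LIF with both inhibitors, a network of transcription factors around Oct4, Sox2 and Nanog holds the naive pluripotent state.

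Reads recovered from the table numbered 21643305 and 23622882 for K365T replicates 1 and 2 and 20148246 and 24519291 for Q418R, within the range of 19721363 to 31935381 over all 16 libraries. All 10 embryonic stem cell markers were present, none differed between the lines by the test used here, and their summed normalised count lay between 148721 and 166780 in the 4 libraries. Of 9 fibroblast and feeder markers 3 passed the filter and Dcn, which encodes decorin, was at 0; their sums lay between 193 and 306. Sums were 485 to 737 for 7 endoderm markers, 273 to 369 for 5 mesoderm markers and 63.7 to 112 for 4 trophectoderm markers. The 4 neuroectoderm markers summed to 893 and 1695 in K365T and to 1065 and 757 in Q418R, mostly from Tubb3, a neuronal tubulin. In a principal component analysis of the 8 LIF libraries, the K365T libraries lay at -36.1 and -44.2 on the first component (36.8% of the variance) and the Q418R libraries at -38.7 and -32.1 on the second (23.1%). The WT and R342C libraries lay together between 21.9 and 27.3 on the first component.

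Expression of Ctcf itself served as a first check, since the transcript counted can come from the endogenous gene or the transgene. Ctcf had normalised counts of 6944 and 8585 in K365T and 8375 and 7369 in Q418R. The values of the lines overlapped, with a log2 difference of -0.03 ± 0.15 (SE) and an adjusted p of 0.953. CTCF protein was not measured in these files.

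Between the lines 1134 of 17166 genes (6.61%) differed at an adjusted p under 0.05 in limma, 661 higher in K365T (3.85%) and 473 lower (2.76%). All differences are log2 of the normalised count plus 4, K365T minus Q418R, which understates the difference of genes with few reads. By size, 257 genes were at least 2-fold higher, 249 were at least 2-fold lower and 266 differed by less than 1.5-fold, and the median size over the called genes was 0.90. None of the 1134 overlapped between the lines, but neither did 9159 of all genes tested (53.4%), so the absence of overlap alone says little with 2 libraries a group. The count rested on each library: 277 genes were called without K365T replicate 1, 558 without K365T replicate 2, 424 without Q418R replicate 1 and 239 without Q418R replicate 2. Where such a fit lost the call of a gene described in the following paragraphs, the libraries are named with the highest adjusted p among those fits.

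**Figure D1:**
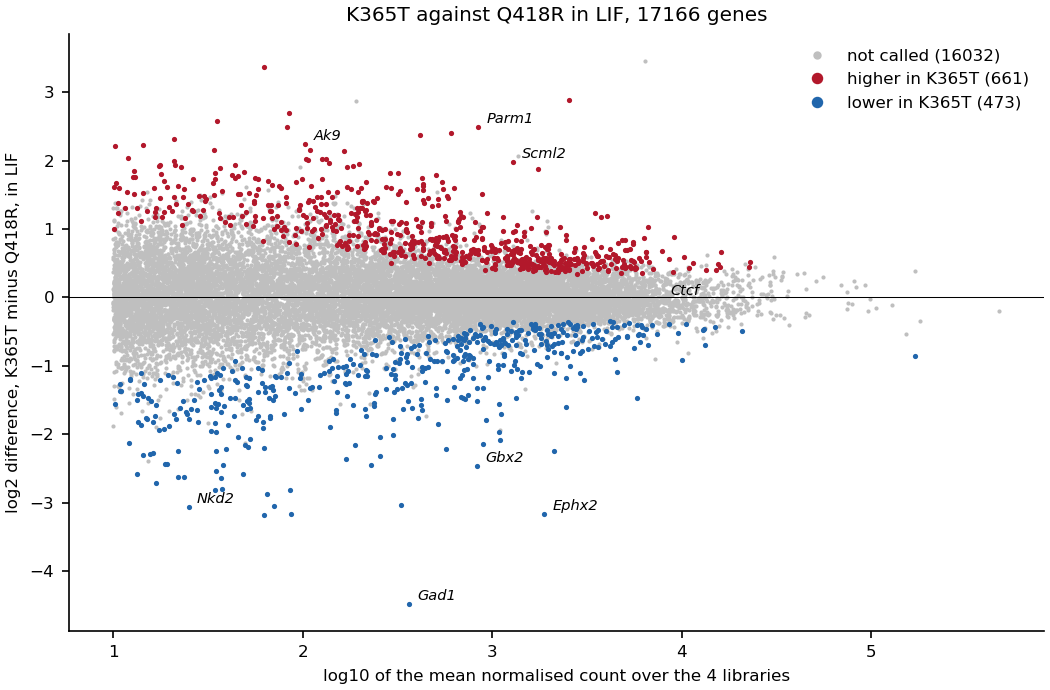
Each point is 1 of the 17166 genes: the x axis is log10 of its mean normalised count over the 4 libraries and the y axis its log2 difference, K365T minus Q418R, in LIF. The 661 genes higher in K365T (red) and the 473 lower (blue) lie on both sides of 0 at all levels, and Ctcf lies at -0.03 among the uncalled genes (grey).

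The gene with the largest positive difference among those named was Parm1. Parm1, which encodes a mucin-like membrane protein, had normalised counts of 1521 and 1326 in K365T and 198 and 314 in Q418R, with WT (533 and 835) between them. Its log2 difference was 2.49 ± 0.25 (adjusted p = 0.000288). Evc2, a ciliary protein required for Hedgehog signalling, stood at 988 and 1038 in K365T and at 260 and 135 in Q418R (2.41 ± 0.27). The WT values of Evc2, 296 and 258, lay close to those of Q418R. Npr3, the clearance receptor for natriuretic peptides, stood at 620 and 781 against 151 and 113 (2.38 ± 0.30), and Nutm1, a gene of testis known from fusions in NUT carcinoma, at 237 and 172 against 34.6 and 62.7 (2.02 ± 0.33). These 4 genes kept their call without any 1 of the 4 libraries.

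Other members of the 12 most increased genes differed by 1.95 to 2.24. All of these but Scml2, which is described with the X chromosome, had low levels in Q418R. Ak9, an adenylate kinase, stood at 135 and 211 in K365T and 39.3 and 26.9 in Q418R. Grb14, an adaptor that restrains insulin receptor signalling, stood at 208 and 129 against 50.0 and 27.9, while WT held 19.5 and 19.5. Kcnj3, a potassium channel subunit, stood at 183 and 163 against 38.1 and 41.8. The rule that named these genes required that the libraries of the lines did not overlap. For Grb14 the K365T line was the one that lay farther from WT. Rbm24, an RNA-binding protein of muscle development, had 303 and 146 against 54.8 and 47.8, and Cbln1, a secreted organiser of synapses, 372 and 267 against 88.2 and 69.7. Ccdc172, which encodes a coiled-coil protein, had 188 and 246 against 52.4 and 47.8, and Cryge, a lens crystallin with close paralogs among which reads could be split, 181 and 182 against 40.5 and 34.8. Fits without K365T replicate 1 or Q418R replicate 2 lost the calls of Grb14 (adjusted p up to 0.0565) and Cbln1 (0.0868), and fits without K365T replicate 2 or Q418R replicate 2 that of Ak9 (0.078). Rbm24 (0.154) was lost in 3 of the 4 such fits, all but that without K365T replicate 2, and Ccdc172 (0.128) and Kcnj3 (0.177) in all 4.

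The largest difference in the opposite direction was in Gad1, the enzyme that makes the transmitter GABA from glutamate. Gad1 had normalised counts of 18.8 and 39.0 in K365T and of 778 and 615 in Q418R, while WT held 138 and 177 and R342C 108 and 74.5. Both lines thus lay outside the WT and R342C values, K365T below and Q418R above, and the log2 difference was -4.47 ± 0.38 (adjusted p = 0.000104). Ephx2, the soluble epoxide hydrolase, stood at 313 and 438 in K365T and at 2815 and 3963 in Q418R, with WT at 1561 and 1112 (-3.16 ± 0.26, adjusted p = 0.000104). Again K365T lay below WT and Q418R above it.

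Epdr1, an ependymin-related secreted protein, stood at 65.2 and 39.0 in K365T and 217 and 352 in Q418R (-2.36 ± 0.31), with a WT mean of 26.7, below both. Gja1, the gap junction protein connexin 43, stood at 246 and 665 against 1676 and 1782 (-2.08 ± 0.31), with WT at 1835 and 1570, near Q418R. The difference of Gja1 was -1.37 without K365T replicate 1, the lower of the K365T libraries, and was still called. Aox3, an aldehyde oxidase, stood at 480 and 1081 against 3019 and 3893 (-2.24 ± 0.37), and Cdh4, which encodes R-cadherin, at 114 and 331 against 923 and 917 (-2.22 ± 0.43). The WT values lay between the lines for Aox3 and within the range of the K365T libraries for Cdh4. Snhg17, a host gene of small nucleolar RNAs, stood at 244 and 430 against 1387 and 1494, Mobp, a myelin protein, at 87.3 and 49.3 against 278 and 338, and Ccbe1, a secreted protein of lymphatic development, at 63.0 and 72.9 against 341 and 440. Gbx2 and Lef1, also among the 12 most decreased genes, are described with their pathways. Calls were lost without Q418R replicate 2 for Aox3 (adjusted p = 0.0509) and Ccbe1 (0.0553), in the 3 fits other than that without K365T replicate 2 for Cdh4 (up to 0.0949; its difference was -1.47 without K365T replicate 1) and Snhg17 (0.173), and in all 4 for Mobp (0.194).

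**Figure D2:**
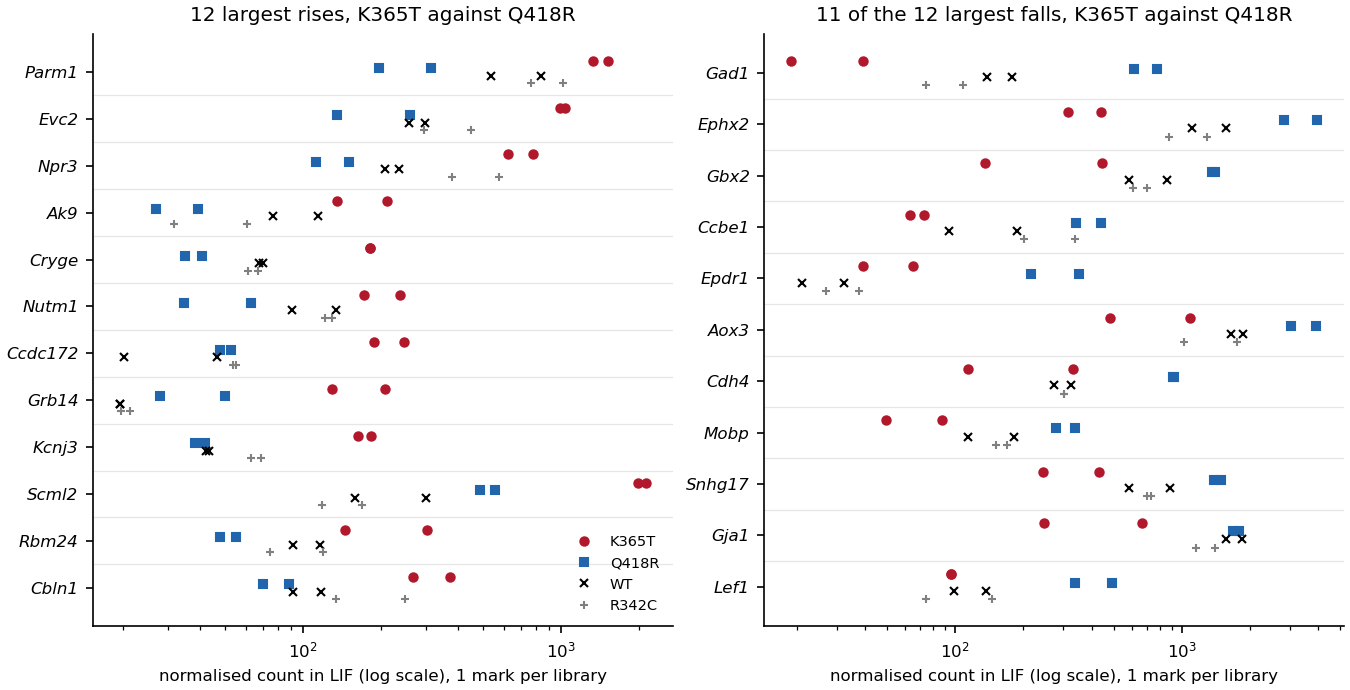
Normalised counts in LIF on a log scale, 1 mark per library, for the 12 named genes with the largest positive log2 difference (left) and 11 of the 12 with the largest negative one (right). K365T (red circles) and Q418R (blue squares) do not overlap in any of the 23 genes, which the naming rule required. WT (crosses) and R342C (plus signs) lie between the lines for genes such as Parm1, Ephx2 and Gad1.

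Promoter sequences are shown for genes that stand out in position or in binding letters: Evc and Evc2, neighbours that are read away from each other and were both higher in K365T, and Aox3 and Asz1, the 2 named genes found to hold a CTCF-like string. Sequences are from RefSeq on GRCm38.p6 and run from 250 bases before to 50 bases after the start of the gene, on the strand of the gene. Of 98 genes that the naming rule chose, 70 matched a promoter by symbol. The string searched on both strands was CCA, 2 bases of any kind, AG, 2 bases of any kind and GGC, 12 letters modelled on the core of the CTCF recognition sequence, and capitals mark its matches.
Evc, chr5:37336832-37337131, minus strand: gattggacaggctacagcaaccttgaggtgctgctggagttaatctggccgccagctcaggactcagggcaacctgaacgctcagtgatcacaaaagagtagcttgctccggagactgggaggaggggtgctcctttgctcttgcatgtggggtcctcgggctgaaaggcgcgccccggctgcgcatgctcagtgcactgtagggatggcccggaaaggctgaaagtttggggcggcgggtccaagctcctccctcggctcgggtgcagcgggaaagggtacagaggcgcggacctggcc
Evc2, chr5:37338228-37338527, plus strand: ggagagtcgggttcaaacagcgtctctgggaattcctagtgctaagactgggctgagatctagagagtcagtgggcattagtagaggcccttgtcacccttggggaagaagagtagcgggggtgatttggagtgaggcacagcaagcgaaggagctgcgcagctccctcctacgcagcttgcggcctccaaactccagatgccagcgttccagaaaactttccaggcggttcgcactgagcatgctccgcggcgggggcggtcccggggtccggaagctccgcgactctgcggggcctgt
Aox3, chr1:58112886-58113185, plus strand: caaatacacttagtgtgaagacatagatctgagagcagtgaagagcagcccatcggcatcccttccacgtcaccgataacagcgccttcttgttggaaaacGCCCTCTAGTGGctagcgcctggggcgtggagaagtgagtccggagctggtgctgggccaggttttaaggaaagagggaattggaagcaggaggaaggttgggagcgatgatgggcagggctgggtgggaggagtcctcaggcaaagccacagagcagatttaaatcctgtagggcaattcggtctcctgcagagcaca
Asz1, chr6:18109012-18109311, minus strand: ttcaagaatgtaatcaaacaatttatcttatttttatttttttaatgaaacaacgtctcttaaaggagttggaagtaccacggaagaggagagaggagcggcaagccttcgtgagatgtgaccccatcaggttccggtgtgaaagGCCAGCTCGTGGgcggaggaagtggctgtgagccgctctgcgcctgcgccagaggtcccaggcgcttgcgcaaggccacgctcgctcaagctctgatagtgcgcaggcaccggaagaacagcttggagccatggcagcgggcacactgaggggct
The starts of Evc and Evc2 lie 1597 bp apart, and neither window holds the string. In Aox3 the match covers bases 102 to 113 of the window, and in Asz1 bases 146 to 157, in both on the strand opposite to the gene. The string occurred in 400 of 11666 tested genes with a sequence (3.43%). It occurred in 17 of 520 genes higher in K365T (3.27%) and in 10 of 343 lower (2.92%). The shares of called genes are thus close to that of all tested genes. Of all 32851 promoter sequences, 2.43% held the string. That share counts sequences, of which a gene can have several, so it cannot be compared with the shares of genes. A match is a description of letters and not evidence of binding.

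Most pluripotency genes were not called. None of 18 naive pluripotency genes was higher in K365T and 2 were lower (11.1%, against 2.76% of all genes tested), Klf5 and Gbx2 (median difference of the list 0.01, against 0.00 over all genes tested). Klf5, a Krüppel-like factor of the naive network, stood at 7183 and 6670 in K365T and 12377 and 13821 in Q418R, with WT at 10161 and 10500 (-0.92 ± 0.17, adjusted p = 0.00609). Gbx2, a homeobox gene downstream of LIF and STAT3, stood at 135 and 445 against 1399 and 1360, with WT at 859 and 582 (-2.47 ± 0.59, adjusted p = 0.0244). In both genes K365T lay below WT and Q418R above it. Of 15 general pluripotency genes 2 were lower (13.3%, against 2.76% of all genes tested), among them Sall4, and none was higher. Sall4, a zinc finger factor that works with Oct4, stood at 8671 and 11511 against 15946 and 16557 (-0.70 ± 0.14). The genes that encode Oct4, Sox2, Nanog and Esrrb were not called; Nanog stood at 22059 and 28412 in K365T and 17905 and 17701 in Q418R (0.49 ± 0.21, adjusted p = 0.182). The fit without Q418R replicate 2 lost the call for Klf5 (adjusted p = 0.0757), also without K365T replicate 1 for Sall4 (0.0965), and also without Q418R replicate 1 for Gbx2 (0.23). Without K365T replicate 1 the difference of Gbx2 was -1.62.

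All called genes of the LIF, ERK and Wnt lists were lower in K365T. In the list of the LIF receptor and STAT3 targets, 2 of 18 were lower (11.1%, against 2.76% of all genes tested) and none higher. The list median was nevertheless 0.10, and 66.7% of its members had a positive difference. The 2 genes were Gbx2 and Il6st, which encodes gp130, the subunit that LIF receptors share. Il6st stood at 2701 and 2736 in K365T and 4383 and 4600 in Q418R, with WT at 3364 and 3176 (-0.72 ± 0.12, adjusted p = 0.00423). Among 17 ERK feedback genes and ETS targets, Dusp6 and Etv1 were lower (11.8%, against the same 2.76%) and none higher (median -0.26). Dusp6, the phosphatase that ERK signalling induces against itself, stood at 132 and 110 in K365T and 368 and 347 in Q418R (-1.54 ± 0.22, adjusted p = 0.00158), and its WT values of 484 and 325 were near those of Q418R. Etv1, an ETS factor induced by ERK, stood at 376 and 607 against 1064 and 1116 (-1.18 ± 0.22). Leaving out Q418R replicate 2 ended the call for Il6st (adjusted p = 0.0531) and leaving out it or K365T replicate 1 that for Etv1 (up to 0.0776), and none of the fits lost that of Dusp6.

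Of 15 Wnt targets 3 were lower in K365T (20%, against 2.76% of all genes tested) and none was higher, with a list median of -0.64 in LIF and 0.38 without LIF. Lef1, a transcription factor that β-catenin binds, stood at 96.2 and 95.5 in K365T and 493 and 338 in Q418R (-2.05 ± 0.53, adjusted p = 0.0357), while WT held 98.9 and 136. Apcdd1, an inhibitor of Wnt at the membrane, stood at 791 and 957 against 1925 and 2011 (-1.17 ± 0.14, adjusted p = 0.000754), and WT held 1090 and 1110. In both genes it was Q418R that lay farther from WT. Nkd2, which restrains Wnt signalling at Dishevelled, had 2.21 and 2.05 in K365T, the worth of 2 reads in each library, and 56.0 and 39.8 in Q418R (-3.06 ± 0.34). WT and R342C libraries held between 0 and 2.34, so that Nkd2 was raised in Q418R alone among the 4 lines in LIF. Sp5 and Axin2, named here after their values were seen, differed by -1.93 ± 0.72 (adjusted p = 0.132) and -0.64 ± 0.27 (0.192), so these direct β-catenin targets were not called. The call of Lef1 was lost in each of the 4 fits without 1 library (adjusted p up to 0.199).

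Immediate early genes, which growth factors induce within minutes, had the highest list median, 0.84, with 3 of 18 called higher (16.7%, against 3.85% of all genes tested) and none lower. Egr3 stood at 19.9 and 33.9 in K365T, with a Q418R mean of 6.16 (1.60 ± 0.45), Egr4 at 13.3 and 30.8 against a Q418R mean of 3.38 (1.76 ± 0.39), and Btg2, an antiproliferative gene, at 2842 and 1788 against 1236 and 1410 (0.77 ± 0.21). The largest differences of the list were not called, and their libraries were far apart within a line. Egr1, named after its values were seen, stood at 6319 and 16898 in K365T and at 1898 and 463 in Q418R (3.46 ± 1.08, adjusted p = 0.0742), with a WT mean of 2191. Fos, named likewise, stood at 1877 and 2344 against 991 and 249 (2.07 ± 0.84, adjusted p = 0.167). Calls were lost without K365T replicate 2 or Q418R replicate 2 for Egr4 (adjusted p up to 0.151), in all 4 fits without 1 library for Egr3 (0.281), which lost its call in 12 of 18 alternatives in all, and in 3 of them for Btg2, whose difference was 0.44 without K365T replicate 1 (0.343).

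Of 16 formative and primed genes 1 was higher and 1 lower. The higher was Lin28b, which blocks let-7 maturation, with 353 and 332 in K365T and 142 and 112 in Q418R (1.41 ± 0.25, adjusted p = 0.0057), both above WT at 97.3 and 65.9; the lower was Lef1. None of 15 Nodal signalling genes was called. Its most abundant members, Tdgf1, the Nodal co-receptor, and Smad7, an inhibitory SMAD, differed by 0.61 ± 0.26 and -0.44 ± 0.24. Among markers of differentiated lineages, calls were made for none of 13 endoderm, 13 mesoderm and 6 fibroblast genes, Gad1 alone of 7 neuroectoderm genes, and Gata3 alone of 14 trophectoderm genes. With 6.61% of all genes called, lists of this length do not stand apart from the rest by these counts. Gata3, a trophoblast transcription factor, stood at 28.7 and 31.8 against 8.34 and 4.98 (1.70 ± 0.32), and WT held 17.9 and 18.4. Calls were lost without Q418R replicate 2 for Gata3 (adjusted p = 0.088) and without that library or K365T replicate 1 for Lin28b (up to 0.0754).

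**Figure D3:**
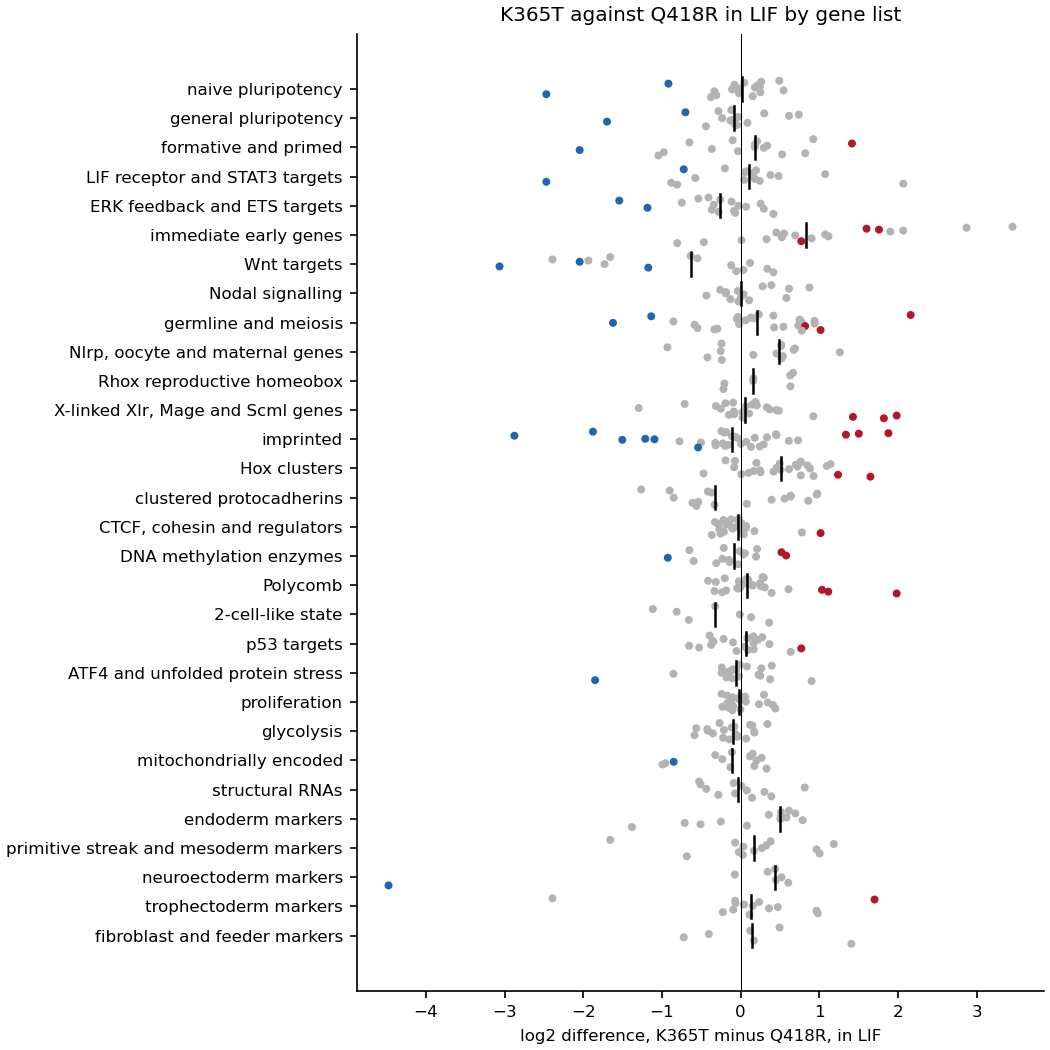
Each point is a gene, placed by its log2 difference (K365T minus Q418R, in LIF) within 1 of 30 lists, red where called higher, blue where called lower and grey where not called; the black bars are list medians and the vertical spread within a list carries no meaning. Most medians lie near 0, and those of immediate early genes (0.84) and Wnt targets (-0.64) lie farthest from it.

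Imprinted genes, several of which depend on CTCF binding at a control region, gave 3 higher (9.09%) and 6 lower (18.2%) calls of 33 tested, against 3.85% and 2.76% of all genes tested. Within the Dlk1-Dio3 region of chromosome 12, the maternal noncoding RNAs Meg3, Rian and Mirg were all lower in K365T. Of the called imprinted genes, Meg3, Rian, Slc38a4, Sgce and Mest fall outside the rule for named genes and were named after their values were seen. Meg3 stood at 1954 and 1739 in K365T and 4050 and 4513 in Q418R (-1.21 ± 0.17, adjusted p = 0.00149), with a WT mean of 5673. Rian stood at 2741 and 3033 against 6349 and 5986 (-1.10 ± 0.20), with a WT mean of 8158, and Mirg at 287 and 313 against 892 and 825 (-1.50 ± 0.37). All 3 were thus below WT in both lines, and further so in K365T. Nnat, the paternal gene for neuronatin, stood at 6.63 and 19.5 against 148 and 84.6 (-2.88 ± 0.45, adjusted p = 0.00269). Airn, the RNA antisense to Igf2r, stood at 4.42 and 8.21 against 35.7 and 30.9 (-1.88 ± 0.36); whether counting used the strand is not stated, so reads of the overlapping Igf2r cannot be told apart. Slc38a4, an amino acid transporter gene, differed by -0.54 ± 0.14.

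The 3 imprinted genes that were higher lie on chromosome 6. Peg10, a gene of retrotransposon origin needed in the placenta, stood at 2279 and 3174 in K365T and 947 and 561 in Q418R (1.88 ± 0.38), and its divergent neighbour Sgce, which encodes ε-sarcoglycan, at 49.7 and 54.4 against 16.7 and 14.9 (adjusted p = 0.00274). Mest stood at 611 and 762 against 347 and 206 (1.34 ± 0.21), with a WT mean of 211. For Peg10 the WT libraries, at 1187 and 491, differed from each other by a larger ratio than those of either line. Calls were lost without K365T replicate 2 or Q418R replicate 2 for Peg10 (adjusted p up to 0.127), in the 3 fits other than that without K365T replicate 2 for Airn (0.0908), and in all 4 for Mirg (0.151). Slc38a4 lost its call in the 3 fits other than that without Q418R replicate 1 (up to 0.311) and Rian without K365T replicate 1 (0.0611). The calls of Nnat, Meg3, Sgce and Mest were kept in all 4.

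Of 26 germline and meiosis genes, Asz1, Piwil2 and Stag3 were higher (11.5%, against 3.85% of all genes tested) and Tex101 and Tdrd12 lower (7.69%, against 2.76%). Asz1, a protein of the piRNA machinery, stood at 52.0 and 59.5 in K365T and a mean of 12.2 in Q418R (2.16 ± 0.47), while WT held 0 and 1.08. Stag3, the meiotic cohesin subunit, stood at 2134 and 2178 against 1015 and 1115 (1.02 ± 0.24), and Piwil2, a piRNA-binding protein named after its values were seen, at 868 and 630 against 413 and 421 (0.82 ± 0.22). Tdrd12, a piRNA pathway helicase, had the opposite direction, with 188 and 174 against 469 and 681 (-1.62 ± 0.22, adjusted p = 0.00143), and Tex101, a germ cell surface protein, stood at 68.5 and 83.1 against 155 and 188 (-1.14 ± 0.27). Members of the same pathway thus differed in direction. Calls were lost in 3 of the fits without 1 library for Asz1 (adjusted p up to 0.144; the difference was 1.23 without Q418R replicate 2) and Piwil2 (0.279), in all 4 for Stag3 (0.136) and Tex101 (0.177), and in none for Tdrd12.

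On the X chromosome, 3 of 25 listed genes were higher in K365T (12%, against 3.85% of all genes tested) and none lower. Scml2, a Polycomb-related protein of male germ cells, stood at 1991 and 2137 in K365T and 553 and 487 in Q418R (1.98 ± 0.30, adjusted p = 0.00227), both above WT at 160 and 300. Nxf3, an RNA export factor of the germline, stood at 646 and 623 against 224 and 243 (1.43 ± 0.26), with WT at 55.3 and 83.2, and Sh3bgrl, a small SH3-domain-binding protein, at 558 and 440 against 174 and 109 (1.82 ± 0.24, adjusted p = 0.00123), with WT at 52.2 and 33.5. In all 3 genes Q418R lay above WT and K365T above Q418R. None of 7 Rhox genes and none of 14 Nlrp, oocyte and maternal genes was called, against 6.61% of all genes tested. The call of Nxf3 alone of the 3 was lost, without K365T replicate 1 (adjusted p = 0.0544).

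Of 28 Polycomb genes 3 were higher (10.7%, against 3.85% of all genes tested), among them Scml2 and the chromobox gene Cbx8 (276 and 240 against 122 and 113). Of 16 DNA methylation genes 2 were higher (12.5%) and 1 lower (6.25%, against 2.76% of all genes tested). Uhrf1, which brings DNMT1 to replicated DNA, was higher by 0.52 ± 0.10 and Tet3, a methylcytosine dioxygenase, by 0.58 ± 0.13. Mbd2, a reader of methylated DNA, was lower by 0.93 on the log2 scale (SE 0.18). Of 26 genes for CTCF, cohesin and their regulators, Stag3 alone was called. Of 27 Hox genes, whose clusters hold CTCF-bound boundaries, Hoxd13 (119 and 92.4 against 39.3 and 23.9, 1.65 ± 0.28) and Hoxd4 (16.6 and 16.4 against 3.57 and 5.97, 1.24 ± 0.33) were higher (7.41%, against 3.85% of all genes tested). The median of the Hox genes was 0.51, with 85.2% of them positive, against 50.5% of all genes tested. Without LIF their median was 0.98, with 8 of the 27 called higher, against 1.92% of all genes tested. In LIF none of 17 clustered protocadherins was called. Lists of 17 or 26 genes do not stand apart by 0 or 1 call, since 6.61% of all genes were called. Calls were lost in all 4 fits without 1 library for Cbx8 (adjusted p up to 0.185), Tet3 (0.104) and Hoxd4 (0.204; 9 of 16 alternatives in all), in 3 for Uhrf1 (0.0726) and Mbd2 (0.0965), and in 2 for Hoxd13 (0.0613).

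None of 20 proliferation genes, 20 glycolysis genes and 12 structural RNAs was called, nor any of 7 genes of the 2-cell-like state. Of 20 p53 targets Btg2 alone was called, and of 19 ATF4 and unfolded protein genes Aldh1l2 alone, a mitochondrial folate enzyme that stood at 252 and 191 in K365T and 687 and 933 in Q418R (-1.85 ± 0.25, adjusted p = 0.00143). Of 13 mitochondrially encoded genes mt-Co1, a subunit of cytochrome oxidase, was lower, with 116247 and 126100 against 206840 and 230638, while WT held 104580 and 109614 and R342C 171409 and 198444. The call of mt-Co1 was lost in each of the 4 fits without 1 library (adjusted p up to 0.157). With 6.61% of all genes called, lists of this length do not stand apart by 0 or 1 call.

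Higher calls were more frequent on some chromosomes than on others. The median difference was 0.30 over 1078 genes of chromosome 1, 0.32 over 1312 genes of chromosome 11 and 0.25 over 852 genes of chromosome 6, whereas it lay between -0.12 and 0.11 on the other autosomes and the X. Chromosome 11 held 162 higher (12.3%) and 15 lower calls (1.14%), chromosome 1 held 111 (10.3%) and 15 (1.39%) and chromosome 6 held 73 (8.57%) and 12 (1.41%). Over all genes tested the shares were 3.85% and 2.76%. The same medians without LIF, from other libraries of these lines, were 0.33, 0.24 and 0.21. Set against WT in LIF, the chromosome 11 median was 0.34 in K365T and 0.04 in Q418R, and that of chromosome 1 was 0.48 and 0.18. On chromosome 6 it was Q418R that stood away from WT, at -0.38 against -0.11 for K365T, and R342C lay within 0.02 of WT on all 3 chromosomes. Chromosome 8 showed a smaller shift, 0.11 in each medium.

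**Figure D4:**
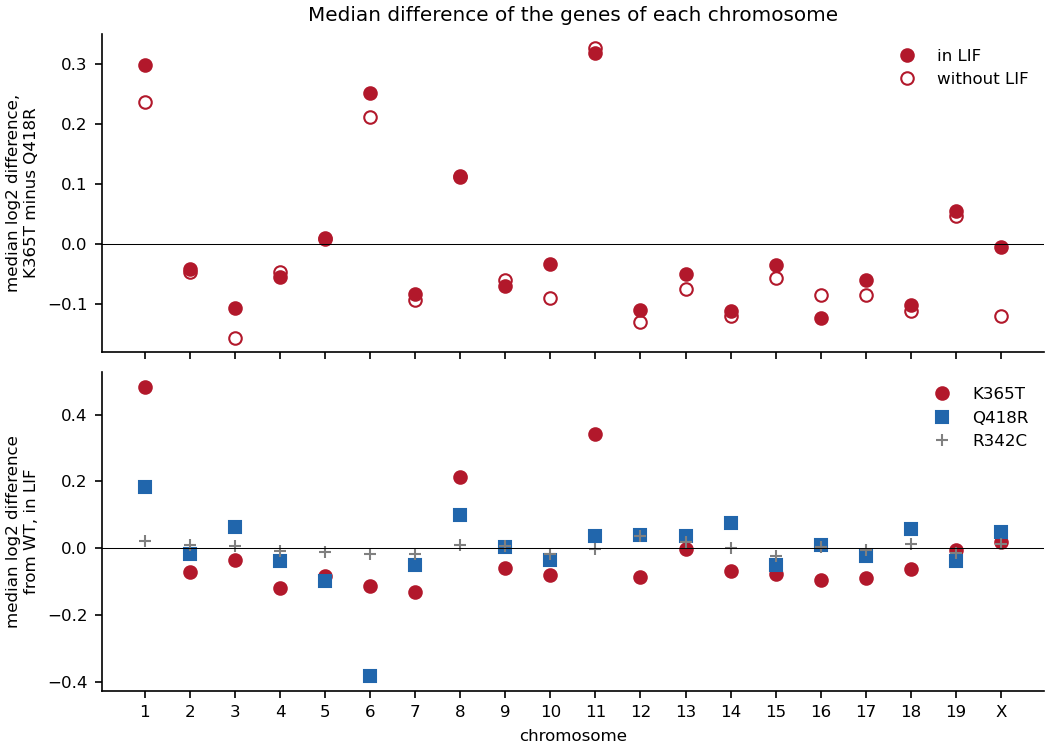
Upper panel, median log2 difference (K365T minus Q418R) over the tested genes of each chromosome in LIF (filled) and without LIF (open). Lower panel, median log2 difference of K365T (red circles), Q418R (blue squares) and R342C (plus signs) from WT in LIF, where chromosomes 1 and 11 are high in K365T (0.48 and 0.34) and chromosome 6 is low in Q418R (-0.38).

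Windows of 10 Mb were used to describe where along the chromosomes these shifts lay. A window was called shifted where its median over genes with a mean of at least 100 was 0.25 or more away from the overall median, with the window next to it shifted the same way, a rule that uses the LIF differences and is therefore a description. Of 253 windows with at least 8 such genes, 31 were shifted, all higher in K365T, and they joined into 6 stretches. They covered chromosome 1 at 0 to 20, 30 to 80 and 150 to 200 Mb, chromosome 5 at 20 to 40 Mb, chromosome 6 at 10 to 50 Mb and all of chromosome 11. Some windows left out for want of a shifted neighbour had medians as high. Examples start at 90 and 130 Mb on chromosome 1 (0.33 and 0.34), at 0 Mb on chromosome 5 (0.44) and at 140 Mb on chromosome 6 (0.31). The borders of the stretches thus depend on the rule. The stretches held 2433 genes (14.2% of those tested), with 317 of the 661 higher calls (48.0%) and 25 of the 473 lower calls (5.29%). Outside the stretches, a set that still holds such windows, 344 of 14733 genes were higher (2.33%) and 448 lower (3.04%). Lower calls were the more frequent in that set. Without LIF the median inside the stretches was 0.30 and outside them -0.05. The number of shifted windows was 23 to 38 when 1 library was left out.

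The lines differed in which of them stood away from WT within a stretch. On chromosome 5 at 20 to 40 Mb the median was -0.04 for K365T and -0.47 for Q418R, and on chromosome 6 at 10 to 50 Mb it was -0.11 and -0.43. On chromosome 11 and in the stretches of chromosome 1 it was K365T, with medians of 0.34 to 0.60 against 0.04 to 0.19 in Q418R. Among genes of a mean of at least 100, the median difference of each stretch corresponds to a 1.24-fold to 1.33-fold higher level in K365T. DNA copy number was not measured in these files, and its part in the shifts was not tested.

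The rule named genes within each stretch by the size of their called difference. That they differed by more than their surroundings follows from this choice. Evc, the partner of Evc2, stood at 307 and 279 in K365T and 95.3 and 57.7 in Q418R (1.92 ± 0.28, adjusted p = 0.00171). Together with Wfs1, a protein of the endoplasmic reticulum membrane (1.06 ± 0.16), and Crmp1, which acts in axon guidance (1.32 ± 0.25), both named after their values were seen, the pair whose promoters are printed above makes a run of 4 neighbouring called genes. Zfyve28, an endosomal protein that limits EGF receptor signalling, lies in the same stretch of chromosome 5 and stood at 395 and 440 against 150 and 119. On chromosome 6, Flnc, a muscle filamin, stood at 725 and 584 against 242 and 177 (1.63 ± 0.23), Irf5, an interferon regulatory factor, at 273 and 271 against 54.8 and 87.6 (1.91 ± 0.32), and Kcp, a BMP pathway modulator, at 679 and 610 against 204 and 224 (1.57 ± 0.24). On chromosome 11, Rflnb, a filamin regulator, stood at 673 and 639 against 180 and 208 (1.74 ± 0.22), Fmnl1, a formin, at 1019 and 654 against 220 and 285, and Ddc, which makes dopamine and serotonin, at 690 and 629 against 180 and 235. Among the genes of this paragraph, calls were lost without K365T replicate 1 or Q418R replicate 1 for Ddc (adjusted p up to 0.0887), and without K365T replicate 2 or Q418R replicate 2 for Crmp1 (up to 0.105).

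In the stretches of chromosome 1, Tagln2, an actin-binding protein, stood at 5507 and 4281 in K365T and 1902 and 2248 in Q418R (1.23 ± 0.17), Speg, a striated muscle kinase, at 285 and 305 against 91.7 and 106 (1.55 ± 0.24), and Sgk3, a kinase related to AKT, at 2496 and 2261 against 957 and 1146 (1.18 ± 0.20). For Speg the WT values of 322 and 265 were near those of K365T. Ankrd44, a phosphatase regulatory subunit, stood at 605 and 1055 against 254 and 274, Gpr161, a ciliary receptor that represses Hedgehog signalling, at 390 and 230 against 97.7 and 95.6, and Susd4, a complement regulator, at 349 and 321 against 170 and 134. Trpa1, an irritant-sensing channel, and Mybl1, a regulator of meiosis, were higher by 1.46 ± 0.36 and 0.82 ± 0.22. Aox3 lies in a stretch as well and had the opposite direction. Calls were lost without K365T replicate 2 for Ankrd44 (adjusted p = 0.063), without K365T replicate 1 or Q418R replicate 2 for Susd4 (0.116), and in all 4 fits for Trpa1 (0.211) and Mybl1 (0.255).

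For each called gene, the line farther from the WT mean was counted in LIF. K365T was the farther in 435 of the 661 higher genes (65.8%) and in 314 of the 473 lower genes (66.4%), against 57.9% of all genes tested. Outside the shifted stretches it was the farther in 212 of 344 higher genes (61.6%) and in 303 of 448 lower genes (67.6%). The median called higher gene was 0.61 above WT in K365T and 0.24 below it in Q418R, and the median called lower gene 0.60 below and 0.28 above. WT lay between the lines in 364 higher (55.1%) and 319 lower genes (67.4%), against 30.2% of all genes tested. The called genes were chosen for a wide gap between the lines, which by itself makes a value between them more frequent. No conclusion is therefore drawn from that contrast. These counts describe levels and carry no test, since the WT libraries are set against both lines.

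The difference between the lines was then followed without LIF, in 4 other libraries of the same lines. There 578 genes were called (3.37%), 330 higher (1.92%) and 248 lower (1.44%), in K365T against Q418R without LIF. That count was 279 without Q418R replicate 1 of this medium and 43 without its replicate 2. Of the 1134 genes called in LIF, 925 had the same direction without LIF, 535 of the higher and 390 of the lower, while over all genes tested 11602 of 17166 did. In both media 225 genes were called in the same direction, which is 19.8% of the LIF calls and 38.9% of the calls without LIF, and 4 were called in opposite directions. Across the called genes, which are not independent replicates, Pearson's r between the media was 0.60 and the slope 0.32, and over all genes r was 0.41. The called genes were chosen for their difference in LIF, so the slope is a description only.

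Genes that differed in both media included several named above. Nkd2 differed by -3.24 without LIF (adjusted p = 0.000466), with 17.9 and 29.6 in K365T and 254 and 252 in Q418R. Epdr1 differed by -2.12, with 103 and 136 against 530 and 529, and Scml2 by 1.85, with 2016 and 1552 against 538 and 443. Parm1 (1.28), Evc2 (1.25) and Nnat (-2.20) were called in both media as well. For Npr3, by contrast, levels without LIF were 47.4 and 84.3 against 35.2 and 45.8, a difference of 0.61 that was not called.

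A test of the difference between media found 19 genes (0.111%), 12 with a more positive difference in LIF (0.0699%) and 7 with a more negative one (0.0408%), and 1459 at an unadjusted p under 0.05. In the K365T against Q418R by medium interaction, 2 genes were called without Q418R replicate 2 in LIF, 4 to 8 without any 1 of Q418R replicate 1 in LIF, K365T replicate 1 in LIF and the 2 Q418R libraries without LIF, and 39 and 33 without K365T replicates 1 and 2 of the medium without LIF. Gad1 was in LIF high in Q418R and low in K365T, and in no LIF its values were 44.3 and 31.9 (K365T) and 29.7 and 23.4 (Q418R). Its difference thus moved from -4.47 to 0.45, a change of -4.93 ± 0.54 (adjusted p = 0.00359). In no LIF, Ephx2 stood at 1742 and 1029 (K365T) and 1128 and 1297 (Q418R), so that its values overlapped there. Its difference moved from -3.16 to 0.15, a change of -3.31 ± 0.37 (adjusted p = 0.00359). The interaction of Gad1 and of Ephx2 was called in every alternative run.

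**Figure D5:**
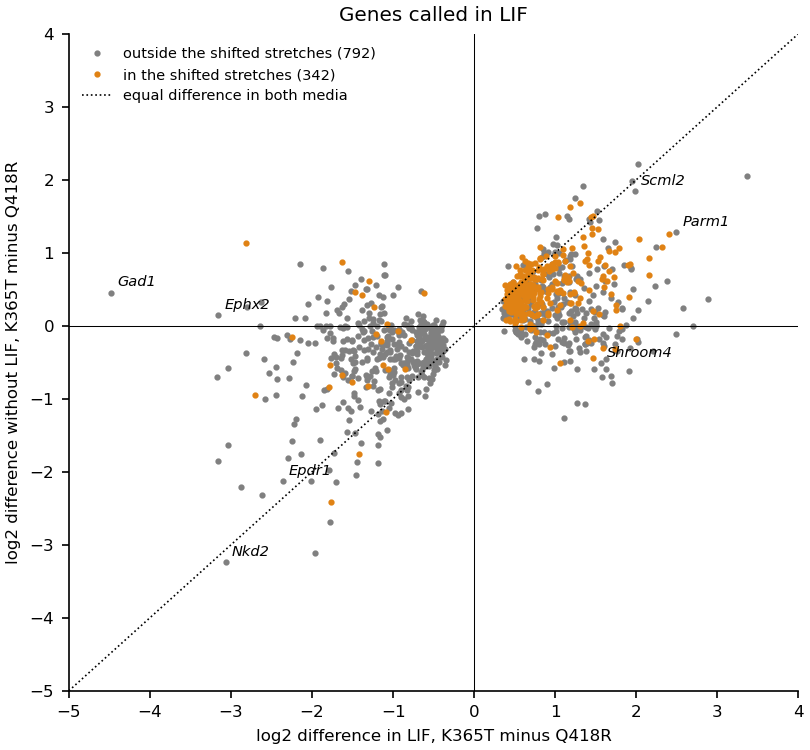
Each point is 1 of the 1134 genes called in LIF, placed by its log2 difference (K365T minus Q418R) in LIF on the x axis and without LIF on the y axis, orange for genes in the shifted stretches and grey for the 792 others; the dotted line marks equal differences. Nkd2, Scml2 and Epdr1 lie near the dotted line, and Gad1 and Ephx2 lie near 0 on the y axis.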

How the data were processed

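Ribosomal RNA was depleted from 500 ng of RNA per sample and stranded libraries were read as 150 bp pairs, per the labels' protocols. Trim Galore, STAR, DESeq2 and the genome build mm10 are named, without versions, per the submitters' processing notes; the counting tool and the annotation are not given in the sources used here. The authors deposited a table of normalised counts, a signal made by dividing gene counts by 1 size factor per library, and a table of TPM, which served as an alternative. All 16 columns of each table were mapped to samples by their names, and 0 columns lacked a sample.

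The model was fitted to log2(normalised count + 4) by lmFit, with moderated tests from eBayes(trend=TRUE) on the contrasts (limma 3.58.1, R 4.3.3), over all 16 libraries, with 1 mean for each of 8 groups of line and medium and 8 residual degrees of freedom. Genes needed a mean of at least 10 over the 4 LIF libraries compared, and two-sided p-values were adjusted by Benjamini-Hochberg over all 17166 genes, with a threshold of 0.05. Values of each library were whole multiples of 1 step (0.779 to 1.19), at least 99.97% of them within 0.05 of a whole number, so reads were recovered for edgeR 4.0.16 and DESeq2 1.42.0, used as alternatives only; for Q418R replicate 2 in LIF the step lies close to 1, which makes the recovery harder to check. The fit was tested on simulated data. Within K365T and within Q418R, replicates differed by more than sampling noise. The differences between replicates 1 and 2 in LIF correlated at -0.263 between K365T and Q418R, -0.346 between K365T and WT and 0.388 between Q418R and WT, so the numbers were not taken to pair the libraries.

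Genes were placed by name on GENCODE M21 (GRCm38), where 53186 of 55291 names (96.2%) had 1 position. Named genes are Ctcf; the 12 largest called differences each way with a mean of at least 100 and no overlap between the lines, leaving out clone and model names; up to 4 called genes of each of 30 lists by size, or the 2 most abundant; up to 3 of each shifted stretch; and 6 for the difference between media. A few genes that this rule chose are not reported here. Members and lists were chosen with earlier results of these data known. Lists, chromosome medians and levels relative to WT are descriptions with no test. Alternatives changed the pseudocount, filter, scaling, test, libraries and replicate term.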

Additional observations from a re-analysis of the deposited data

Results flagged for a closer look

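Of the 19 genes called by the limma interaction test, whose difference between K365T and Q418R in LIF differed from that without LIF, the 6 of smallest adjusted p are given here. The interaction was -4.93 (log2) for Gad1 and -3.31 for Ephx2, whose levels are given above.

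Dnah8, which encodes a dynein heavy chain, stood in LIF at 9551 and 10416 in K365T and 10867 and 11603 in Q418R, and without LIF at 7154 and 7118 against 3257 and 3834. Its difference was -0.17 in LIF and 1.01 without LIF, an interaction of -1.18 ± 0.14 (SE, adjusted p = 0.00463). The lines thus differed by the test in the medium without LIF.

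Cobll1, an actin-regulating cordon-bleu relative, stood in LIF at 857 and 854 in K365T and 321 and 290 in Q418R, and without LIF at 157 and 198 against 254 and 281. The interaction was 2.06 ± 0.25 (adjusted p = 0.00463). Shroom4, an actin-binding protein encoded on the X chromosome, stood in LIF at 462 and 513 against 197 and 134, and without LIF at 598 and 818 against 1009 and 993, an interaction of 2.07 ± 0.27 (adjusted p = 0.00859). In both genes K365T was higher in LIF and the values lay in the opposite order without LIF, where the difference was not called.

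Fmn1, a formin of limb and kidney development, stood in LIF at 957 and 737 against 611 and 604, and without LIF at 173 and 196 against 415 and 619. Its interaction was 1.91 ± 0.27 (adjusted p = 0.016). Without Q418R replicate 2 in LIF the adjusted p was 0.0515 for each of Dnah8, Cobll1 and Shroom4 and 0.099 for Fmn1, and with TPM it lay between 0.109 and 0.148 for these 4 genes. The Shroom4 interaction also lost its call without either Q418R library of the medium without LIF (0.0508 and 0.0567). The Fmn1 interaction lost its call without replicate 2 of them (0.0611), without K365T replicate 1 in LIF (0.0865) and without Q418R replicate 1 in LIF (0.0665).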

How the results depend on the processing

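Of 92 calls of single genes run under the alternatives (those that the naming rule chose and the other called genes described), none reversed, 37 held in every one, 55 were lost in at least 1 and 54 of these in a fit without 1 library. TPM ended 22. Pseudocounts, filters, TMM scaling, edgeR or fewer genes or libraries also ended calls of Egr3, Btg2, Asz1, Hoxd4, Lef1, Cbx8, Kcnj3, Mobp, Mybl1, Slc38a4 and Piwil2. K365T against Q418R in LIF gave 1134 calls, and 950 to 1598 with other pseudocounts, filters, scalings of the counts, edgeR or DESeq2. TPM gave 569 calls (68.5% higher, against 58.3%; it moved the median of all genes to 0.06), of which 541 were among the 1134. Genes outside the shifted windows gave 677 calls, 43.1% of them higher, fewer by construction. The 8 LIF libraries alone gave 1955 calls, and fits without 1 library 239 to 558. K365T against Q418R by medium interaction gave 19 calls, but 38 with a pseudocount of 16, 11 without a filter on low values, 4 with TPM, 187 with DESeq2 and 2 to 39 without 1 library. K365T against Q418R without LIF gave 578 calls, but 179 with TPM, 1217 with DESeq2, 324 outside the shifted windows, and 43 to 544 without 1 library; upper-quartile scaling raised its higher share from 57.1% to 65.2%. Except where stated, the cause was not tested.

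With the replicate number as a block, K365T against Q418R in LIF gave 1170 calls, K365T against Q418R by medium interaction 18 and K365T against Q418R without LIF 639; among the 92 it ended 2 calls, Egr3 and Btg2. Since the replicate differences of K365T and Q418R in LIF were negatively correlated, a crossed pairing was added after seeing the data, and it gave 1264 calls in LIF.

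Depth limited genes of few reads: the median SE was 0.37 for means of 10 to 100 and 0.14 from 1000 upward. The medians of chromosomes 1, 6 and 11, taken relative to that of all genes, kept their direction under each scaling and without each library. With windows of 5 Mb, 56 were shifted up and 2 down, and with 20 Mb 20 were shifted up. Medians of lists near 0, such as the list of CTCF, cohesin and their regulators (-0.04, and 0.02 with TPM), changed sign with TPM.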

Other observations

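Some called genes lay beside each other, and how many would do so by the frequency of calls alone was not tested. By a rule chosen after seeing the data, neighbours with a mean of at least 100 that were all called in the same direction formed 18 runs of at least 3 genes, 14 higher in K365T and 4 lower, with 75 genes in all; 10 runs lay in the shifted stretches. The longest held 16 genes on chromosome 11, from Tlk2, a kinase of chromatin assembly, to Ern1, the sensor IRE1 of the unfolded protein response (chr11:105178807-106487852, GRCm38). Its median difference was 0.81 in LIF and 0.74 without LIF, where 14 of the 16 genes were called as well. Against WT in LIF its median was 0.89 in K365T, 0.12 in Q418R and 0.01 in R342C, so that K365T was the line that stood apart there.

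Runs of the opposite direction lay outside the stretches. On chromosome 14, Ephx2 was joined by Ptk2b, a kinase related to FAK (175 and 239 in K365T, 647 and 645 in Q418R, log2 difference -1.64 ± 0.19), and Trim35, a ubiquitin ligase (1089 and 902 against 2006 and 2249, -1.10 ± 0.14). The WT mean of Ptk2b, 203, was near K365T, and that of Trim35, 1651, lay between the lines. On chromosome 3, the glutathione transferases Gstm1 (-1.47), Gstm2 (-0.74) and Gstm3 (-1.57) were lower, with counts that may be shared among these paralogs. Their calls were lost in all 4 fits without 1 library for Gstm2 (adjusted p up to 0.187) and without Q418R replicate 2 for Gstm3 (0.0642). In this run the median against WT was -1.44 in K365T and -0.15 in Q418R.

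By type of gene, 4.59% of 13735 protein-coding genes were higher and 3.04% lower, against 3.85% and 2.76% of all genes tested. Of 497 long intergenic noncoding RNAs, 7 were higher (1.41%) and 15 lower (3.02%). Of 838 pseudogenes, 4 were higher (0.477%) and 14 lower (1.67%). On the Y chromosome 3 of 13 tested genes were higher (23.1%, against 3.85% of all genes tested) and none lower. Among them Kdm5d, a histone demethylase named after its values were seen, stood at 181 and 211 in K365T and 57.2 and 54.8 in Q418R, with a WT mean of 14.1 and an R342C mean of 6.01. Its call was lost in all 4 fits without 1 library (adjusted p up to 0.088).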
